A study of Drosophila melanogaster with 9 samples.

Results

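The hearts of Drosophila females fed a sugar-rich or a fat-rich diet were compared, as 1 group, with the hearts of females on normal diet. The group held the 6 libraries of the rich diets, 3 on high sugar diet (HSD) and 3 on high fat diet (HFD), and it was set against the 3 libraries on normal diet (ND), so that all 9 libraries of the series were used. The genes described are those that sugar and fat moved alike, 53 of the 8365 genes tested. A gene counted as moved alike when it passed the test of the 6 libraries against ND, when its mean changed at least 1.5-fold in that direction on HSD and on HFD, and when all 6 libraries lay on 1 side of all 3 ND libraries. All flies were adult mated females of the genotype w1118. HSD was the ND food, made of agar, yeast and cornmeal, with 30% sucrose added, and was eaten for 10 days. HFD had 30% coconut oil added and was eaten for 3 days after 7 days on ND. ND females ate the unsupplemented food for 10 days. The rich diets thus differ in duration as well as in the nutrient. By the study's methods the 3 samples of a diet were independent and were collected on separate days, and females of the 3 diets were set up together for each date. Whether the letters of the libraries mark those dates is not given in the sources used here. Each library, named A, B or C within its diet, pooled the RNA of 15 hearts by the sample labels, and was made from total RNA after ribosomal RNA removal.

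The fly heart is a contractile tube of cardiomyocytes along the back of the abdomen, flanked by pericardial nephrocytes, which filter the hemolymph, and embedded in fat body. The fat body combines functions of liver and adipose tissue. It stores amino acids and lipid, makes yolk and storage proteins, detoxifies, and secretes hormones that report the state of nutrition to the brain, where insulin-like peptides are released. Dissected hearts can carry fat body, oenocytes, hemocytes and traces of other organs, and in such bulk samples fewer cells of a type and less RNA per cell cannot be told apart.

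Between 59941911 and 90068826 reads per library fell on genes, with the mates of a pair counted separately. Levels are given as RPKM, the reads of a gene divided by its length in kilobases and by the library's reads on genes, rescaled between libraries by the median of ratios. The gene labels of 9 stretches of rows are displaced from their values by 1 to 5 rows and were realigned. Of the rows there with 100 to 3000 reads, 97.2% came to whole reads with the length of the realigned gene, and 0.742% with that of the gene listed. The first 2 principal components held 27.5% and 26.8% of the variance, and HFD C stood apart from the other 8 libraries on the third, which held 17.9%. The cardiac factor gene Hand averaged 222 RPKM on HSD, 231 RPKM on HFD and 250 RPKM on ND, and the cardiac homeobox gene tin 3.09, 3.59 and 3.11 RPKM, so heart markers were present on each diet.

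On both rich diets the RNA of a fat body storage protein, of a yolk protein, of enzymes of amino acid breakdown, of cytochrome P450 oxidases and of odorant-binding proteins was lower than on ND, and that of few genes was higher. By the difference of mean log2 values, the storage protein gene Lsp2 was 28.3-fold lower on the rich diets, Gnmt of the methionine cycle 19.5-fold, the cytochrome P450 gene Cyp6a8 5.90-fold, and the satiety signal gene fit 3.79-fold. Of the genes tested, 4 of 15 odorant-binding protein genes, 5 of 56 cytochrome P450 genes and 2 of 7 genes of tyrosine breakdown fell. Over all genes tested, 0.610% were called lower. The insulin-binding antagonist gene ImpL2 rose 1.92-fold and was among 5 genes that rose on both diets. Genes of the contractile apparatus, the ion channels and the cardiac transcription factors did not pass the test.

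Of the 8365 genes tested, 57 were called (0.681%), which required an adjusted p under 0.05 and a change of at least 1.5-fold. Each adjusted p comes from limma, with the Benjamini-Hochberg correction over all genes tested. They comprised 51 genes lower (0.610%) and 6 higher (0.0717%) on the rich diets than on ND. Of these, 53 had moved alike, 48 lower and 5 higher. The other 4 called genes, CG34330, CG8157 and CG12825, which were lower, and toc, which was higher, changed less than 1.5-fold on 1 of the diets. Among the 48 decreases, 5 were more than 4-fold, 17 between 2-fold and 4-fold and 26 less than 2-fold, and their median on the log2 scale was -0.87. The log2 fold changes (log2FC) are on the scale of log2 of RPKM plus 0.5, which understates the change of genes with low RPKM. The two-sided exact permutation test over the 84 ways to choose 3 of the 9 libraries gave each of the 53 genes p = 0.0238, the smallest it can give, which their lack of overlap fixes.

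The count depended on which libraries were in the test. It was 5 without ND A and 3 without ND C, and it was 26 without ND B, 16 without HSD B, 28 without HFD B and 36 without HSD A. All 57 genes kept their sign in every one of these fits. Their rich-diet libraries do not overlap with ND, which left little room for a change of sign. With the library letter as a block, 14 genes were called, 12 of them among the 57, and Lsp2, Gnmt, fit, ImpL2 and Yp1 were not among them (limma adjusted p between 0.054 and 0.091). The genes CG43085, CG10962 and CG14630 were called in all 9 fits that left out 1 library, 22 of the 53 genes moved alike were called in 5 or more, and CG6503 and CG3609 in none. ND A held the highest of the 3 ND values in 33 of the 48 genes that fell, ND C in 12 and ND B in 3. With the RPKM as deposited, without rescaling, 45 genes were called, 31 lower and 14 higher, so that the share of higher genes among those called was 31.1% against 10.5% after rescaling.

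**Figure D1:**
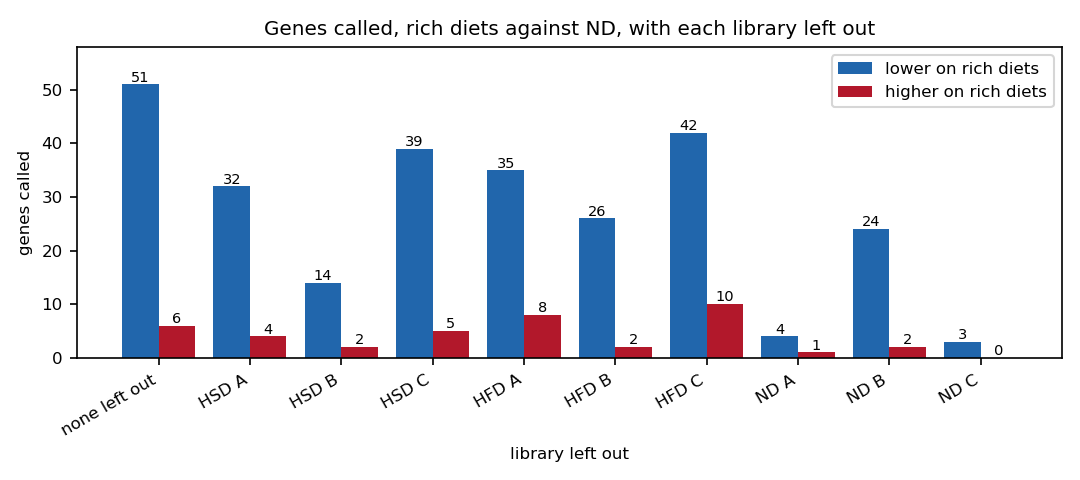
Genes called in the comparison of the 6 rich-diet libraries with ND, with all 9 libraries and after removal of each library named below the bars; blue bars count genes lower and red bars genes higher on the rich diets, with the number above each bar. The test called 51 lower and 6 higher genes with all libraries, 4 and 1 without ND A, and 3 and 0 without ND C.

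Lsp2 (FBgn0002565), on chromosome 3L from 12129393 to 12131869 of the BDGP6 annotation, had the largest decrease of all genes called. It encodes a hexamerin, a serum protein that stores amino acids. Lsp2 was expressed at 9.77, 22.1 and 122 RPKM on HSD, at 3.76, 8.66 and 19.8 RPKM on HFD, and at 947, 327 and 347 RPKM on ND. Every rich-diet library was below every ND library, as the choice of the genes requires, yet the values also spread widely within each diet. Its log2FC was -4.82 ± 0.89 (SE), with a limma adjusted p of 0.042, and it was called in 1 of the 9 fits without a library. limma-voom on the rebuilt reads, chosen after seeing the data, did not call it (adjusted p = 0.11). Exons of an antisense RNA gene cover 84.6% of its exon bases, and whether the reads were counted by strand is not given in the sources used here. Lsp2 is itself 1 of the 5 fat body markers. The summed level of these markers ranged from 1332 to 1511 RPKM on HSD, from 1041 to 1305 RPKM on HFD and from 1825 to 2546 RPKM on ND, and without Lsp2 from 1259 to 1501, from 1038 to 1296 and from 1499 to 1636 RPKM. Fbp1 and Fbp2, other genes of the list, were at 0 in at least 1 library, and the part of the fat body markers in this result was not tested. Of the 5 storage protein and lipoprotein genes tested, Lsp2 alone was called, against 0.610% called lower over all genes tested. The median log2FC of the 5 was -0.45, against 0.01 over all genes tested.

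The yolk protein genes were among the most highly expressed of the hearts. Yp1 (FBgn0004045, chromosome X, 10053811 to 10055498) was expressed at 10728, 10524 and 8702 RPKM on HSD, at 6487, 7191 and 7267 RPKM on HFD, and at 21268, 15289 and 17098 RPKM on ND. The diets did not overlap with ND, and the HFD libraries were also below the HSD libraries. Yp1 had a log2FC of -1.09 ± 0.20 (SE, limma adjusted p = 0.042). Its exons are covered to 54.3% by those of an antisense RNA gene. Yp2 and Yp3 were also below ND in all 6 libraries, with log2FC of -1.41 and -1.24, and were not called when the 6 libraries formed 1 group (limma adjusted p = 0.11 and 0.093). Both differed between the diets: HSD minus HFD was 1.11 for Yp2 (95% interval 0.69 to 1.53) and 0.82 for Yp3 (0.37 to 1.27). Under quantile normalization, which forces every library to the same distribution, the median log2FC of the 3 yolk genes was -0.03, and Yp3 reached 0.08, above ND. The 15 eggshell genes tested had a median log2FC of -2.29 and 0 of them was called by limma, although 11 had an unadjusted p under 0.05. Over all genes tested, 1062 of 8365 had an unadjusted p under 0.05. limma-voom on the rebuilt reads called 0 as well. The summed ovary and eggshell markers were 2.81, 14.5 and 80.7 RPKM on HSD, 8.25, 3.84 and 16.5 RPKM on HFD, and 47.8, 131 and 1144 RPKM on ND, with ND C the highest. The gene tj, which encodes a Maf factor of somatic gonad cells, was also lower. It was expressed at 2.76, 2.94 and 2.43 RPKM on HSD, at 1.82, 2.09 and 1.52 RPKM on HFD and at 5.30, 4.14 and 5.50 RPKM on ND (log2FC -1.005 ± 0.17, limma adjusted p = 0.038). The part of ovary RNA in the decreases of Yp1 and tj was not tested.

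Of the 15 secreted nutrient signal genes tested 3 were called, against 0.681% of all genes tested, and the median log2FC of the list was -0.18. The gene fit (FBgn0038914, chromosome 3R, 21883924 to 21884454) encodes a secreted satiety signal of the fat body. It was expressed at 139, 181 and 242 RPKM on HSD, at 110, 82.6 and 160 RPKM on HFD, and at 685, 481 and 494 RPKM on ND. A lack of overlap with ND was a condition for these genes, and the highest rich-diet library, HSD C, lay well below the lowest ND library. Its log2FC was -1.92 ± 0.30 (SE, limma adjusted p = 0.028), with -1.57 on HSD and -2.27 on HFD. CCHa2 encodes a peptide hormone of the fat body and gut that promotes the release of insulin-like peptides. CCHa2 (FBgn0038147, chromosome 3R, 13389059 to 13395197) gave 37.8, 28.9 and 34.99 RPKM on HSD, 20.3, 32.2 and 36.8 RPKM on HFD, and 71.5, 75.4 and 73.2 RPKM on ND. The ND values were nearly equal, and those of HFD spread most. Its log2FC was -1.22 ± 0.17 (SE, limma adjusted p = 0.025), and it was called in 5 of the 9 fits without a library.

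ImpL2 moved the other way. It encodes a secreted protein that binds insulin-like peptides and restrains their signalling. ImpL2 (FBgn0001257, chromosome 3L, 4224006 to 4236147) was expressed at 268, 290 and 256 RPKM on HSD, at 250, 209 and 161 RPKM on HFD, and at 125, 117 and 125 RPKM on ND. The lowest rich-diet library, HFD C, was above all ND libraries. Its log2FC was 0.94 ± 0.17 (SE, limma adjusted p = 0.040), and it was called in 1 of the 9 fits without a library. Exons of CG46460 on the same strand cover 61.9% of its exon bases, so the reads of these genes could not be separated here. The other 12 signals tested were not called. NLaz, a lipocalin that restrains insulin signalling, had all 6 libraries below ND and a log2FC of -0.48 (limma adjusted p = 0.15), and the other 11, Ilp6, upd3 and daw among them, overlapped with ND.

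**Figure D2:**
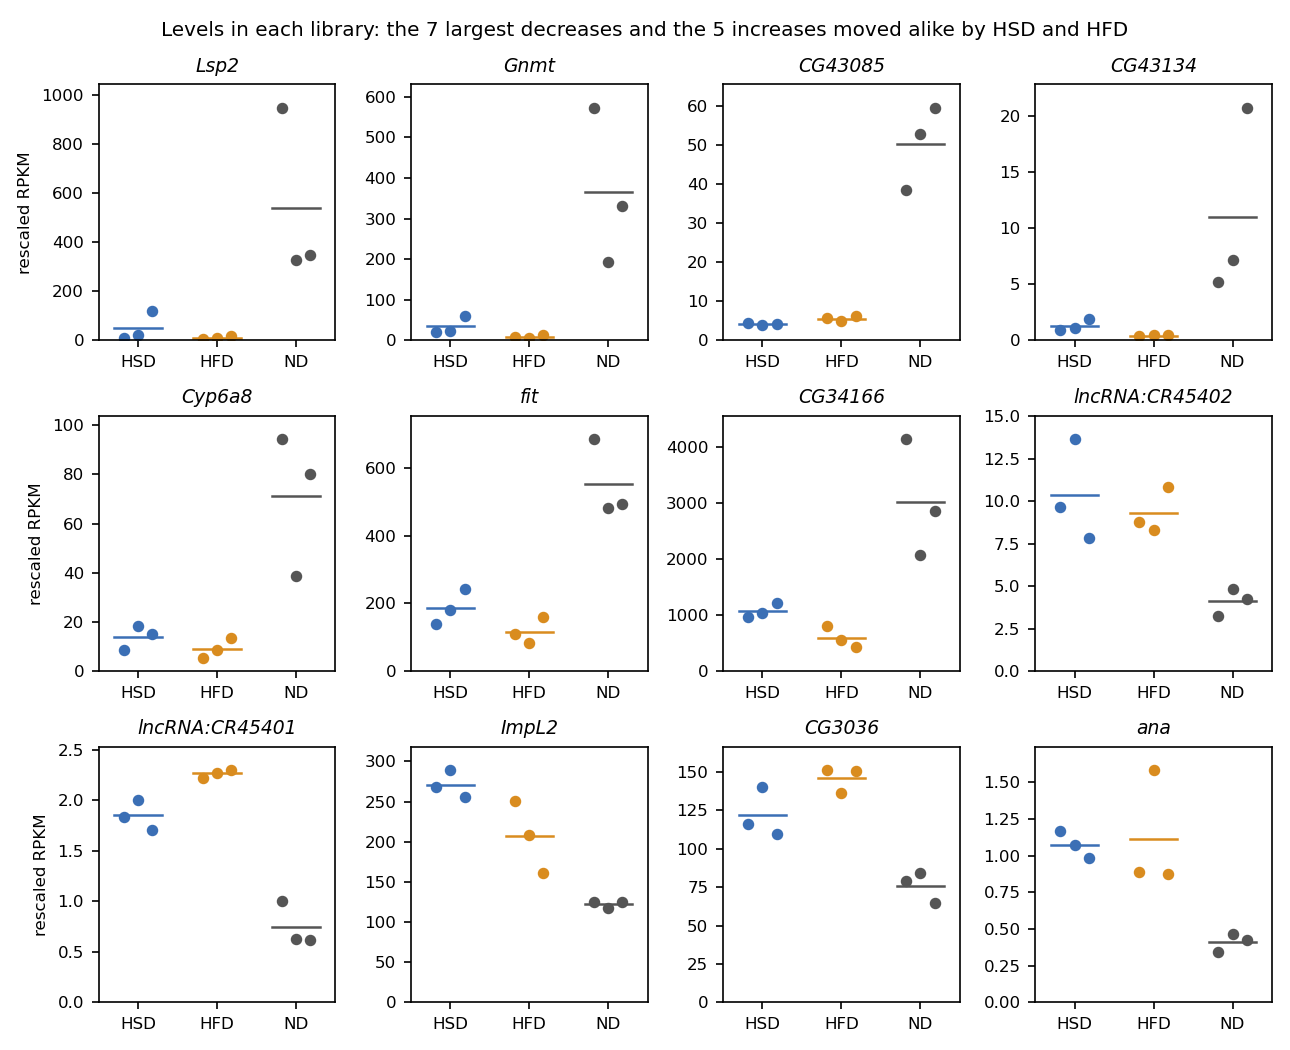
Rescaled RPKM in each library on linear axes that start at 0, for the 7 largest decreases and the 5 increases among the genes moved alike; points are the A, B and C libraries of HSD (blue), HFD (orange) and ND (grey), from left to right, and lines are diet means. In each panel all 6 rich-diet points lie on 1 side of the ND points, as the choice of these genes requires. ND A is the highest ND library for Lsp2, Gnmt, Cyp6a8, fit and CG34166.

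Among the genes of amino acid metabolism, Gnmt fell most. It encodes glycine N-methyltransferase, which passes the methyl group of S-adenosylmethionine to glycine and forms sarcosine. Gnmt (FBgn0038074, chromosome 3R, 12674608 to 12676084) was expressed at 21.4, 22.5 and 59.5 RPKM on HSD, at 8.01, 6.38 and 13.5 RPKM on HFD, and at 573, 192 and 331 RPKM on ND. No HFD library reached the lowest HSD library, and no HSD library came near ND. Its pooled log2FC was -4.28 ± 0.63 (SE, limma adjusted p = 0.025), and it was called in 6 of the 9 fits without a library. HSD minus HFD was 1.73 (95% interval 0.63 to 2.84, limma adjusted p = 0.058), the largest difference between the diets among the 53 genes. Of the 8 genes of the methionine and sarcosine cycle tested, Gnmt alone was called, against 0.610% called lower over all genes tested. With the 6 libraries as 1 group all 8 had a negative log2FC, with a median of -0.47. That sign need not hold on each diet, and the median was -0.58 on HSD and -0.33 on HFD. Between HSD and HFD 1 of the 8 was called, not Gnmt, against 4.35% of all genes tested. The paper reports Sardh, another gene of the cycle, as downregulated on HSD only. Ahcy, which hydrolyses S-adenosylhomocysteine, was below ND in all 6 libraries with a log2FC of -0.53 (limma adjusted p = 0.19).

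Both middle steps of tyrosine breakdown were lower. Hpd, 4-hydroxyphenylpyruvate dioxygenase, was expressed at 36.1, 28.4 and 34.3 RPKM on HSD, at 28.6, 41.4 and 30.9 RPKM on HFD, and at 50.6, 50.8 and 63.8 RPKM on ND. The gene hgo, homogentisate 1,2-dioxygenase, which acts on the product of Hpd, was expressed at 10.3, 8.62 and 11.3 RPKM on HSD, at 11.1, 12.0 and 9.34 RPKM on HFD, and at 16.0, 16.5 and 19.2 RPKM on ND. In neither gene did HSD and HFD separate from each other. The log2FC was -0.72 ± 0.13 for Hpd and -0.70 ± 0.11 for hgo (SE, limma adjusted p = 0.042 and 0.028), and they were called in 1 and 6 of the 9 fits without a library. Of the 7 genes of this list, all had a negative log2FC, with a median of -0.47. The 2 called genes of 7 stand beside 0.610% called lower over all genes tested, and the 5 of 7 with all 6 libraries below ND beside 3.87%. Tat, Faa and GstZ2 were the uncalled genes among these 5, with log2FC of -0.41, -0.31 and -0.56. Exons on the other strand cover 27.3% of those of Hpd.

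Further enzymes that act on amino acids fell. MsrA is among the 12 largest decreases, while Oat and CG6465 were picked out with their values known. MsrA, a methionine sulfoxide reductase, which repairs oxidised methionine, was expressed at 36.7, 62.4 and 41.2 RPKM on HSD, at 51.8, 51.7 and 36.3 RPKM on HFD, and at 192, 85.7 and 108 RPKM on ND, with ND A far above the other ND libraries. Its log2FC was -1.39 ± 0.25 (SE, limma adjusted p = 0.042), with -1.40 on HSD and -1.38 on HFD. Oat, ornithine aminotransferase, gave 47.2, 41.5 and 40.8 RPKM on HSD, 61.2, 57.8 and 56.2 RPKM on HFD, and 106, 82.9 and 85.5 RPKM on ND. The 3 diets did not overlap in any pair. Oat was the gene among the 53 whose diets differed at a limma adjusted p of 0.033, with HSD minus HFD of -0.43, which is under 1.5-fold. CG6465, a predicted aminoacylase, had a log2FC of -0.71 on 113 to 239 reads per rich-diet library and 302 to 345 reads per ND library.

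The 5 cytochrome P450 genes that fell encode haem enzymes, a family that oxidises hormones, fatty acids and foreign compounds. Cyp6a8 (FBgn0013772, chromosome 2R, 14887171 to 14889010) was expressed at 8.73, 18.4 and 15.0 RPKM on HSD, at 5.65, 8.83 and 13.4 RPKM on HFD, and at 94.5, 38.9 and 80.2 RPKM on ND. Its libraries on both rich diets intermixed and stayed under the lowest ND library, ND B. It had a log2FC of -2.56 ± 0.38 (SE, limma adjusted p = 0.025) and was called in 7 of the 9 fits without a library. Its neighbour Cyp6a21, which lies 223 bases away on the same strand, was expressed at 3.19, 3.17 and 3.39 RPKM on HSD, at 3.84, 3.16 and 3.33 RPKM on HFD, and at 6.45, 4.29 and 6.38 RPKM on ND. The decrease of Cyp6a21 was smaller, with a log2FC of -0.67 ± 0.12 (SE, limma adjusted p = 0.039). Cyp4s3 and Cyp4e2 had log2FC of -0.76 and -0.73. The fifth, Cyp9h1, had a log2FC of -0.66, the smallest decrease among the genes moved alike.

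The P450 list as a whole had a median log2FC of -0.18 over its 56 genes tested, and 5 were called lower, against 0.610% of all genes tested. All 6 libraries were below ND in 14 and above ND in 2, against 3.87% of all genes tested below (324) and 3.56% above (298). A negative log2FC was found for 41 of the 56, and the median was -0.245 on HSD and -0.101 on HFD. Between HSD and HFD, 11 of the 56 were called, against 4.35% of all genes tested. Cyp6d5, Cyp6w1 and Cyp6g1, at 207, 68.9 and 65.9 RPKM on HSD, 207, 108 and 158 RPKM on HFD and 348, 176 and 211 RPKM on ND, were below ND in every library and were not called. Cyp4e3 went the other way, with 21.8 RPKM on HSD, 46.4 RPKM on HFD and 8.36 RPKM on ND, all 6 libraries above ND, and a limma adjusted p of 0.13. These 4 genes were picked with their values known. Of 26 glutathione transferase genes, which conjugate electrophiles, 0 was called by limma and 0 by limma-voom, 6 had all libraries below ND, and the median log2FC was -0.20. An unadjusted p under 0.05 was found for 13 of them, against 1062 of the 8365 genes tested. Of 16 UDP-glycosyltransferase genes, Ugt35C1 alone was called, against 0.681% of all genes tested. It was expressed at 26.0, 27.4 and 26.2 RPKM on HSD, at 36.8, 31.6 and 32.0 RPKM on HFD, and at 69.2, 45.3 and 57.2 RPKM on ND. Its log2FC was -0.91 ± 0.15 (SE, limma adjusted p = 0.030). The carboxylesterase gene alpha-Est7 and the aldehyde dehydrogenase gene CG31075, picked with their values known, had log2FC of -0.70 and -1.03.

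All 15 odorant-binding protein genes tested had a negative log2FC, with a median of -0.51, and 4 of them fell, against 0.610% of all genes tested. The family was named for small secreted carriers of odorants in the antenna, and many members are expressed in other tissues. Obp99a was the most abundant of the 4, at 158, 106 and 109 RPKM on HSD, at 123, 188 and 143 RPKM on HFD, and at 370, 246 and 276 RPKM on ND. Obp83ef was expressed at 24.2, 29.8 and 28.1 RPKM on HSD, at 21.4, 22.8 and 23.0 RPKM on HFD, and at 50.9, 44.9 and 42.9 RPKM on ND. The highest rich-diet library, HFD B for Obp99a and HSD B for Obp83ef, was below the lowest ND library. Obp83g, 636 bases from Obp83ef on the same strand of chromosome 3R, had 1.43, 1.78 and 2.85 RPKM on HSD, 0.973, 1.48 and 1.83 RPKM on HFD, and 5.37, 3.99 and 4.56 RPKM on ND, on as few as 35 reads in a library. The log2FC was -1.12 ± 0.20 for Obp99a, -0.89 ± 0.11 for Obp83ef, -1.25 ± 0.22 for Obp83g and -0.79 ± 0.15 for Obp73a (SE, limma adjusted p = 0.040, 0.013, 0.039 and 0.042). Obp83ef was the most stable of them, called in 7 of the 9 fits without a library, and the others in 1 or 2. Obp99c, the most abundant of the family at 948 RPKM on HSD, 991 RPKM on HFD and 1399 RPKM on ND, also stayed below ND in every library and was not called (limma adjusted p = 0.18).

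Of the lists of lipid metabolism, 1 of 12 genes of fatty acid and lipid synthesis was called, against 0.681% of all genes tested, with a median log2FC of -0.32. Limma and limma-voom called 0 of 11 genes of fatty acid oxidation and 0 of 6 genes of lipases and lipid droplets. In these last lists 0 and 1 genes had an unadjusted p under 0.05, against 1062 of the 8365 genes tested. The gene called, Agpat2, encodes an acyltransferase that makes phosphatidic acid. It was expressed at 12.0, 7.64 and 7.49 RPKM on HSD, at 5.36, 8.71 and 11.9 RPKM on HFD, and at 23.5, 16.5 and 23.7 RPKM on ND. The rich diets overlapped with each other, and its log2FC was -1.25 ± 0.24 (SE, limma adjusted p = 0.046). CG14630, which RefSeq also lists as gamma-BBH, a name for gamma-butyrobetaine hydroxylase of carnitine synthesis, was among the most stable genes. CG14630 (FBgn0014903, chromosome X, 1031496 to 1033165) was expressed at 6.27, 6.78 and 7.17 RPKM on HSD, at 5.34, 5.91 and 5.96 RPKM on HFD, and at 25.7, 18.4 and 20.2 RPKM on ND. The rich-diet libraries spanned a narrow range, far under ND. Its log2FC was -1.69 ± 0.11 (SE, limma adjusted p = 2.35e-04). Exons of Rpp21 on the same strand cover 96.6% of its exon bases, so their reads could not be separated here.

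LRP1, a receptor of the low-density lipoprotein receptor family, and CDase, a ceramidase, were picked with their values known. LRP1 was expressed at 14.4, 14.5 and 15.0 RPKM on HSD, at 14.9, 17.3 and 13.2 RPKM on HFD, and at 27.4, 21.9 and 24.5 RPKM on ND, with a log2FC of -0.71 ± 0.09 (SE, limma adjusted p = 0.015). It was called in 7 of the 9 fits without a library, and HSD minus HFD was -0.04, with a 95% interval of -0.28 to 0.21. CDase had 0.909, 1.49 and 1.54 RPKM on HSD, 1.54, 1.24 and 1.499 RPKM on HFD, and 2.40, 2.72 and 2.72 RPKM on ND. The labels of LRP1, CG14630, Agpat2, CG43134, tj and 5 more of the 53 genes lie in the realigned stretches, and with the labels as deposited those 5 named genes had log2FC of 0.07, 0.04, 0.02, 0.13 and 0.15.

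CG43085 had the smallest adjusted p of the 57 genes called. CG43085 (FBgn0262531, chromosome 3L, 17645486 to 17646737) was expressed at 4.36, 3.93 and 4.25 RPKM on HSD, at 5.66, 4.90 and 6.15 RPKM on HFD, and at 38.4, 52.8 and 59.5 RPKM on ND. It was 9.39-fold lower on the rich diets, with a log2FC of -3.23 ± 0.16 (SE, limma adjusted p = 2.85e-05). CG10962 (FBgn0030073, chromosome X, 8972908 to 8974255) was expressed at 7.85, 5.72 and 6.59 RPKM on HSD, at 6.81, 8.15 and 7.63 RPKM on HFD, and at 30.9, 20.1 and 25.5 RPKM on ND. For CG10962, HSD minus HFD was -0.16, with a 95% interval of -0.52 to 0.20, while its log2FC against ND was -1.76 ± 0.14 (SE, limma adjusted p = 7.19e-04). Exons of a long noncoding RNA gene on the same strand cover 44.0% of its exon bases.

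Of the genes with the largest decreases, smp-30 encodes a protein of the regucalcin family, calcium-binding proteins known from mammalian liver. It was expressed at 35.5, 24.7 and 37.6 RPKM on HSD, at 26.5, 21.5 and 26.9 RPKM on HFD, and at 121, 74.3 and 92.6 RPKM on ND, with a log2FC of -1.72 ± 0.20 (SE, limma adjusted p = 0.011). The gene was called in 7 of the 9 fits without a library. CG34166 was much more abundant, at 976, 1034 and 1228 RPKM on HSD, at 806, 568 and 439 RPKM on HFD, and at 4150, 2068 and 2854 RPKM on ND. Its HFD libraries were all below its HSD libraries, with HSD minus HFD of 0.87 (95% interval 0.25 to 1.503, limma adjusted p = 0.086), and it was called in 2 of the 9 fits. CG43134 was expressed at 0.890, 1.06 and 1.90 RPKM on HSD, at 0.389, 0.461 and 0.441 RPKM on HFD, and at 5.17, 7.14 and 20.7 RPKM on ND, on as few as 10 reads in a library. ND C carried its highest value, as for the ovary and eggshell markers. CG6908 was expressed at 3.42, 4.56 and 5.09 RPKM on HSD, at 4.13, 3.82 and 4.17 RPKM on HFD, and at 13.8, 7.98 and 11.8 RPKM on ND, with a log2FC of -1.29 ± 0.16 (SE, limma adjusted p = 0.012).

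The remaining decreases were smaller, and the genes described here were picked with their values known. NimC2, a Nimrod receptor of the blood cells, was expressed at 25.5, 39.5 and 41.6 RPKM on HSD, at 32.9, 28.2 and 31.7 RPKM on HFD, and at 53.9, 64.1 and 59.1 RPKM on ND, a log2FC of -0.84. The summed level of the 7 hemocyte markers was 686 to 944 RPKM on HSD, 750 to 881 RPKM on HFD and 924 to 1047 RPKM on ND, none of them was at 0, and their part in the NimC2 result was not tested. The gene cDIP, whose product binds neuronal Dpr proteins, had 73.8, 59.9 and 47.7 RPKM on HSD, 57.8, 82.1 and 62.7 RPKM on HFD, and 161, 105 and 150 RPKM on ND. CG2233 was the most abundant after Yp1, at 3697, 3173 and 2828 RPKM on HSD, 3751, 3807 and 3412 RPKM on HFD, and 6246, 5431 and 5806 RPKM on ND, on at least 297071 reads in each library. CG6503, which no fit without a library called, had 1079, 1076 and 939 RPKM on HSD, 935, 856 and 859 RPKM on HFD, and 2010, 1353 and 1511 RPKM on ND, so that ND A stood above the other ND libraries. CG8369 differed most between the diets among these, with 9.52, 9.55 and 11.5 RPKM on HSD, 12.4, 20.6 and 15.9 RPKM on HFD, and 31.2, 26.0 and 34.9 RPKM on ND. For CG8369, HSD minus HFD was -0.63, with a 95% interval of -1.03 to -0.23.

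The 5 genes that rose were lncRNA:CR45402, lncRNA:CR45401, ImpL2, CG3036 and ana. The noncoding RNA genes abut on chromosome 3L, lncRNA:CR45401 from 125009 to 125420 on the minus strand and lncRNA:CR45402 from 125421 to 125833 on the plus strand, with 0 bases between them. lncRNA:CR45402 was expressed at 9.65, 13.7 and 7.81 RPKM on HSD, at 8.77, 8.32 and 10.8 RPKM on HFD, and at 3.27, 4.86 and 4.25 RPKM on ND. lncRNA:CR45401 was expressed at 1.84, 2.01 and 1.71 RPKM on HSD, at 2.23, 2.28 and 2.30 RPKM on HFD, and at 1.00, 0.633 and 0.614 RPKM on ND, on 50 to 74 reads per rich-diet library and 19 to 30 reads per ND library. They rose 2.22-fold and 2.06-fold, with log2FC of 1.15 ± 0.17 and 1.04 ± 0.13 (SE, limma adjusted p = 0.025 and 0.011), and were called in 7 and 8 of the 9 fits without a library. Of the 167 long noncoding and antisense RNA genes tested these alone were called, and the median log2FC of the list was -0.06. Over all genes tested, 0.0717% were called higher.

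CG3036 was expressed at 116, 141 and 110 RPKM on HSD, at 152, 136 and 151 RPKM on HFD, and at 78.9, 84.2 and 65.1 RPKM on ND. Its log2FC was 0.81 ± 0.13 (SE, limma adjusted p = 0.029). The gene ana encodes a secreted glial glycoprotein that restrains the division of neural stem cells. It was low throughout, at 1.17, 1.07 and 0.982 RPKM on HSD, at 0.891, 1.59 and 0.874 RPKM on HFD, and at 0.343, 0.469 and 0.428 RPKM on ND, on 147 to 269 reads per rich-diet library and 65 to 94 reads per ND library. With HFD B the highest of its libraries, ana had a log2FC of 0.79 ± 0.15 (SE, limma adjusted p = 0.045) and was called in 1 of the 9 fits. The microtubule-associated protein gene toc, the other gene called higher, was just inside the 1.5-fold threshold with a log2FC of 0.60, and CG12825 was just inside it on the other side at -0.59. NK7.1 at 0.53 and CG11951 at -0.52 lay just outside.

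The sizes of the changes on sugar and on fat were also set against each other. Of the 8365 genes tested, 364 (4.35%) were called between HSD and HFD, and 0 of the 53 were. Oat was the 1 of the 53 with an adjusted p under 0.05. The count of 0 is not independent of how the genes were chosen, since the test of the 6 libraries as 1 group puts the difference between the diets into its spread and so favours genes that move alike. The 95% interval of HSD minus HFD lay within 1.5-fold both ways for 32 of the 53 genes and reached beyond for 21, for which a difference of that size was not excluded. In 11 of those 21 the interval excluded 0. The median size of the difference was 0.22 on the log2 scale among the 53 genes and 0.14 over all genes tested. The decrease was larger on HFD for 25 of the 48 genes that fell and larger on HSD for 23. Lsp2 (HSD minus HFD 1.72, 95% interval -0.31 to 3.75), Gnmt and CG43134 (0.90, -0.06 to 1.86) had the largest differences, all with the deeper decrease on HFD. The comparisons of HSD and of HFD with ND share the 3 ND libraries, so both of a gene's values move together with its ND level.

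**Figure D3:**
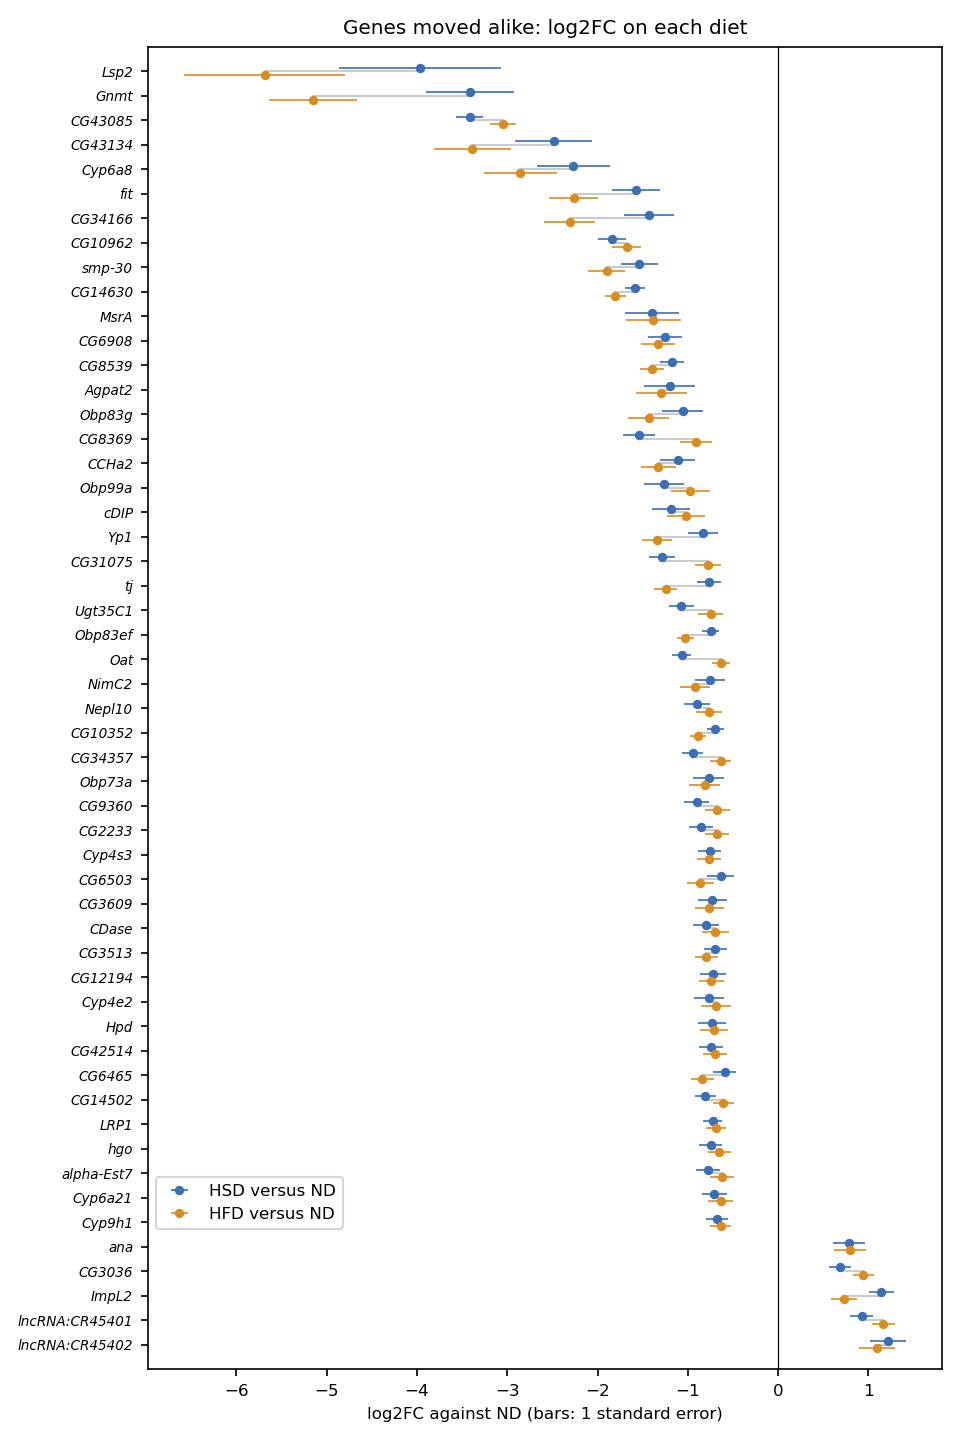
The log2FC of each gene moved alike, on HSD (blue) and on HFD (orange) against ND, with bars of 1 standard error and a grey line joining the diets; genes run from the largest decrease at the top to the largest increase at the bottom. Lsp2 reaches -3.96 on HSD and -5.68 on HFD, and CG43085 -3.42 and -3.05, while LRP1, Hpd and Cyp4s3 have nearly the same value on both diets.

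With 1 mean for each diet and their average set against ND, the difference between the diets stays out of the spread. That test called 127 genes, 109 lower and 18 higher, of which 37 (29.1%) were also called between HSD and HFD. It kept all 53 genes and added 20 that met the same conditions, 13 lower and 7 higher, 6 of them called between the diets. The added genes described here were picked with their values known. Besides Yp2 and Yp3 they held the chorion gene Cp15, at 0.813, 2.96 and 13.7 RPKM on HSD, 1.44, 0.030 and 0.399 RPKM on HFD, and 13.9, 95.04 and 218 RPKM on ND, where HSD C nearly met ND A. Among the added increases, the metallothionein gene MtnA averaged 1980 RPKM on HSD, 1038 RPKM on HFD and 522 RPKM on ND. CG3348 was also above ND on both diets, at 188 RPKM on HSD, 68.8 RPKM on HFD and 40.2 RPKM on ND, and differed between them by 1.45 on the log2 scale.

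The study named 12 genes for secreted proteins in connection with both diets, a list chosen on these samples and so not independent of them. Of these, 5 were called lower with the 6 libraries as 1 group, namely fit, Yp1, CG3513, Nepl10 and CG34357, and ImpL2 was called higher. Over all genes tested, 0.610% were called lower and 0.0717% higher. The paper, which set each diet on its own against ND, also reports Yp2, Yp3, CG7997 and GILT2 as downregulated. CG34357, a predicted guanylate cyclase, was expressed at 1.31, 1.62 and 1.93 RPKM on HSD, at 2.23, 2.04 and 2.06 RPKM on HFD, and at 3.29, 3.41 and 4.00 RPKM on ND. Nepl10, a neprilysin-like metallopeptidase, was expressed at 7.08, 5.82 and 5.91 RPKM on HSD, at 6.58, 8.07 and 6.13 RPKM on HFD, and at 14.8, 10.0 and 11.8 RPKM on ND, and CG3513 averaged 14.8 RPKM on HSD, 13.8 RPKM on HFD and 24.4 RPKM on ND. Their log2FC were -0.79, -0.83 and -0.74 (limma adjusted p = 0.033, 0.028 and 0.025). GILT2, a lysosomal thiol reductase, was below ND in all 6 libraries at 52.96 RPKM on HSD, 74.6 RPKM on HFD and 117 RPKM on ND on average, and did not pass the test of the 6 libraries as 1 group (log2FC -0.89, limma adjusted p = 0.13). The average of both diets, with 1 mean for each, called GILT2 against ND (limma adjusted p = 0.043). It also called Yp2 and Yp3 (limma adjusted p = 0.0049 and 0.0091). CG7997, an alpha-galactosidase, was also below ND in all 6 libraries, with a log2FC of -0.63 on HSD and -0.61 on HFD. The pooled test did not call it (log2FC -0.62, limma adjusted p = 0.15). Invadolysin and phu did not move alike. The metalloprotease gene Invadolysin averaged 35.7 RPKM on HSD, 8.35 RPKM on HFD and 21.1 RPKM on ND, and phu 46.4, 2.77 and 13.0 RPKM, with HSD minus HFD of 2.04 and 3.86 on the log2 scale.

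Genes that make the heart contract were near the median of all genes. Of 24 sarcomere genes, 15 ion channel and calcium handling genes and 9 cardiac transcription factor genes, 0 was called by limma or limma-voom and 0 had an unadjusted p under 0.05, and the median log2FC was 0.07, -0.01 and 0.07. An unadjusted p under 0.05 was found for 1062 of the 8365 genes tested. The myosin heavy chain gene Mhc averaged 259 RPKM on HSD, 276 RPKM on HFD and 253 RPKM on ND. The 68 genes of the respiratory chain and ATP synthase had a median of -0.02, 0 calls by either tool and 0 with an unadjusted p under 0.05. These small medians changed sign under other settings: without rescaling that of the respiratory chain was 0.06 and that of the ion channels 0.07, and without ND C that of the sarcomere list was -0.01. In other groups without a call, all 6 libraries were above ND, against 3.56% of all genes tested, for 7 of 31 aminoacyl-tRNA synthetase genes, which charge tRNAs with amino acids (median log2FC 0.10), and for 8 of 72 mitochondrial ribosomal protein genes (0.09). They were below ND, against 3.87% of all genes tested, for 10 of 21 lysosomal enzyme genes (-0.18).

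**Figure D4:**
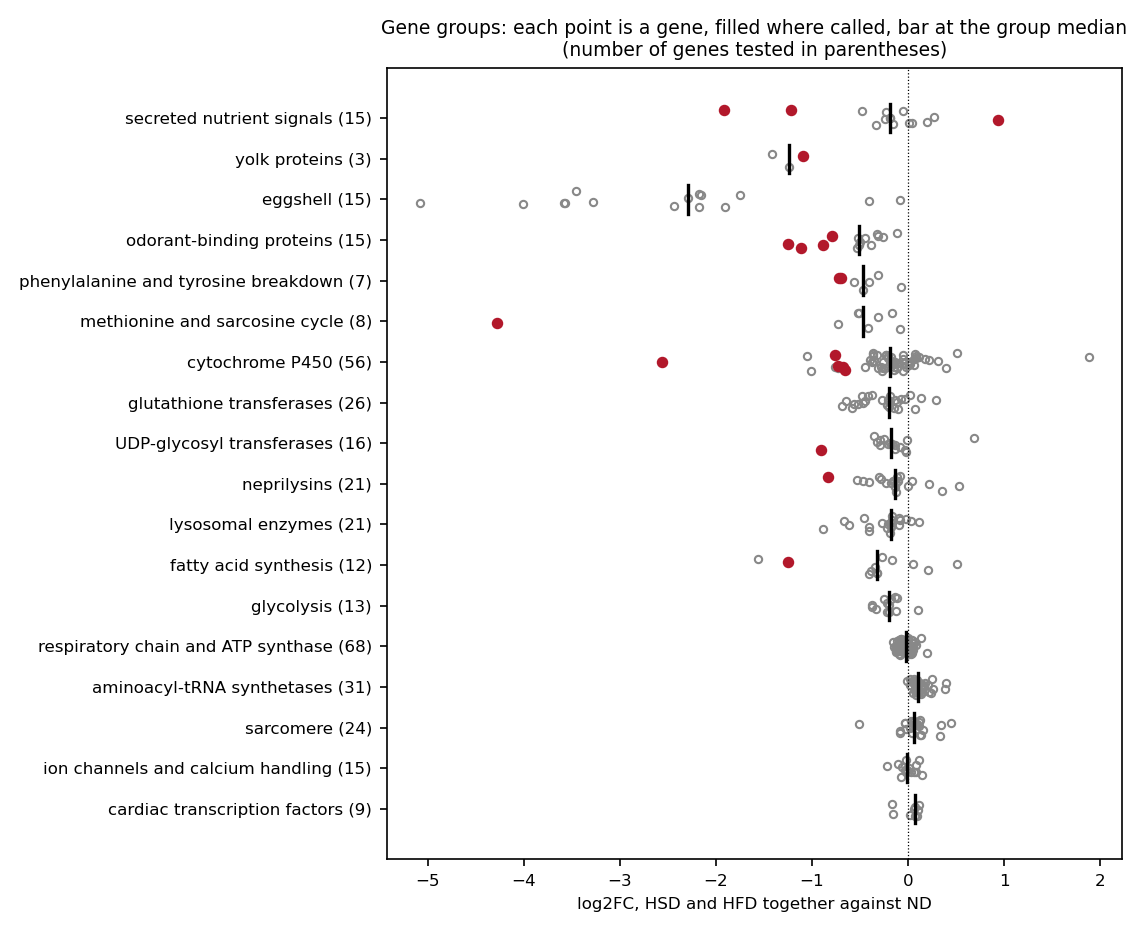
The log2FC of the 6 rich-diet libraries together against ND for the genes of 18 groups, with the number tested in parentheses; filled red points were called, open grey points were not, and black bars are group medians. The odorant-binding protein points all lie below 0, the eggshell genes spread to -5.08 with none called, and the sarcomere, ion channel and cardiac factor points gather near 0.

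Among the genes without overlap between the rich diets and ND, the shifts were larger downward than upward. Over all 8365 genes tested the median log2FC was 0.006, or 0.076 without rescaling, and 4011 genes had a negative log2FC. All 6 libraries were below all ND libraries in 324 genes and above in 298. The genes below differed by a median of 1.32-fold, 106 of them by at least 1.5-fold and 37 by at least 2-fold, and the genes above by a median of 1.17-fold, 24 and 8 of them past these sizes. Of the 324 genes below, 65 had a limma adjusted p under 0.05, against 10 of the 298 above.

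The markers of other tissues moved with diet only in part. The oenocyte list was high throughout, at 57364 to 69691 RPKM on HSD, 48703 to 60775 RPKM on HFD and 39018 to 55096 RPKM on ND. Most of each sum was Cyp4g1, with a log2FC of 0.39. FASN2, Fad2 and eloF also had a positive log2FC, at 0.51, 0.34 and 0.13. FASN3 and FarO had a negative one, at -0.38 and -0.33, and 0 of these genes was called. The pericardial nephrocyte list summed to 176 to 297 RPKM on HSD, 249 to 345 RPKM on HFD and 281 to 382 RPKM on ND, and the cardiomyocyte list to 1661 to 2385, 1545 to 2574 and 1569 to 1982 RPKM. Neuron, gut and flight muscle markers summed to at most 8.44 RPKM in each library. The fat body sum was the 1 of the 9 lists with all 6 rich-diet libraries below ND, and its 1 called gene was Lsp2. Without Lsp2 the fat body sum overlapped with ND only through HSD A, at 1501 RPKM, against 1499 RPKM in ND B. The next rich-diet library, HSD B, held 1310 RPKM. Fbp1 and Fbp2 reached at most 0.314 RPKM, so that sum was nearly all apolpp and FASN1.

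**Figure D5:**
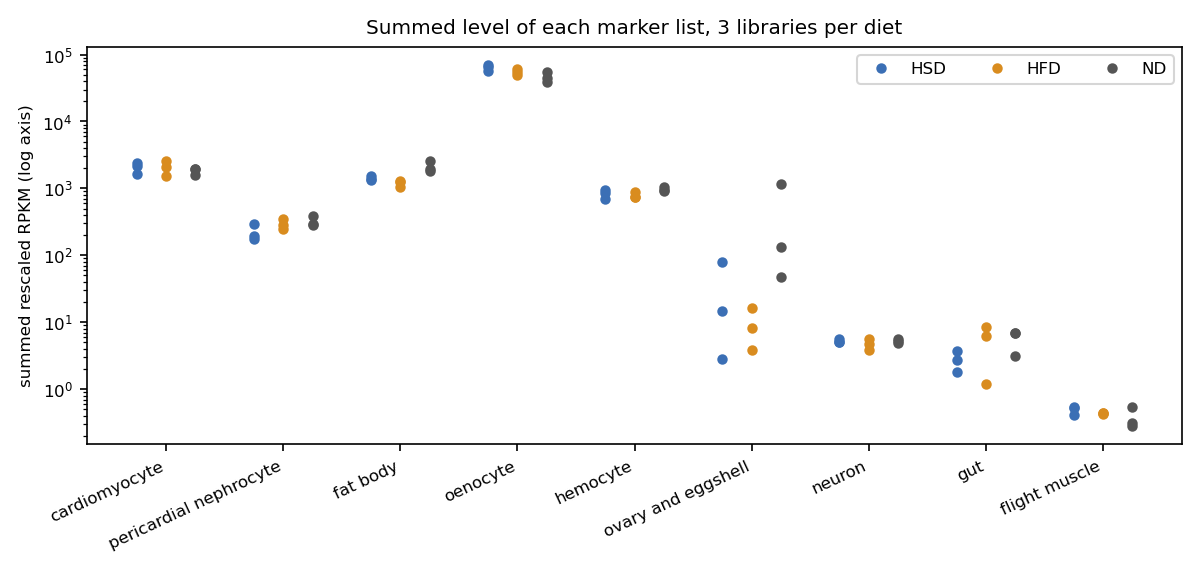
Summed rescaled RPKM of 9 lists of cell type markers on a log axis, with 3 points per diet for HSD (blue), HFD (orange) and ND (grey). The fat body points of both rich diets, with Lsp2 included, lie below ND, and without Lsp2 only the sum of HSD A overlaps with ND. The ovary and eggshell points range from 2.81 to 1144 RPKM with ND C the highest, and the heart muscle points of the 3 diets overlap.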

How the data were processed

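RNA of dissected hearts was sequenced in 9 libraries, 3 each on HSD, HFD and ND, grouped by the diet in their labels. The authors trimmed the reads, aligned them to dm3 with Subread 1.6.1, counted them per gene with featureCounts 1.6.1, updated the identifiers to dm6 and deposited RPKM without rescaling between libraries. The gene lengths behind these values and the strand setting of the counting are not given in the sources used here. The submitters' processing notes also name DESeq2 and edgeR, which by the study's methods served to normalize the reads and to call genes. Neither was used here, since the values deposited with the series are RPKM and not counts. The read counts that the paper describes in its supplement were not used. In 28.4% of cells a decimal comma stands for the point. Labels of 2316 rows in 9 stretches were shifted by 1 to 5 rows, and reads were rebuilt as whole multiples of the value of 1 read (tolerance 0.1 read), with the mates of a pair counted separately. The labels give 15 hearts per library, and the methods of the study a larger number.

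Between libraries, the RPKM were scaled with median-of-ratios factors. The 8365 genes that averaged 0.5 RPKM or more as deposited were kept, and log2 values were taken with a pseudocount of 0.5. In limma 3.58.1 (R 4.3.3), with a trended variance prior and no covariate, the 6 rich-diet libraries were fitted as 1 group against ND, with 7 residual degrees of freedom. A second fit with 1 mean per diet, 6 residual degrees of freedom, gave HSD, HFD and their difference. The thresholds were an adjusted p of 0.05 and 1.5-fold. A two-sided exact permutation test over libraries was run gene by gene. Figures were drawn with matplotlib 3.10.9 in Python 3.11.15. The procedure was tested on simulated data.

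The genes moved alike and the 49 gene lists were chosen with earlier results of these data known. Genes were named as the 12 largest decreases and up to 12 increases moved alike, up to 4 called genes per list, the 12 secreted genes of the study, the 3 called genes with the largest difference between the diets, and the genes next to the fold threshold. Others are marked as picked with their values known. Positions and exon overlaps are from the BDGP6 annotation.

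The alternatives were the unscaled RPKM, quantile normalization, a pseudocount of 0.1 or 1, the table without the filter, a minimum mean of 2 RPKM, a replicate block for the library letter, no trend in the variance prior, each library left out in turn, the average of both diets from the fit with 1 mean per diet, both diets called, no fold threshold, an unadjusted p, and the labels as deposited. After the data had been seen, limma-voom on the rebuilt reads was added.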

Additional observations from a re-analysis of the deposited data

Results flagged for a closer look

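Cyp6a21 was singled out because 1 of the 6 rich-diet libraries lay apart from the rest: HFD A held 3.84 RPKM and the next library 3.39 RPKM, a gap of 0.65 of the range of the group, more than Dixon's limit for 6 libraries. It was 1 of the 57 genes looked at, and chance alone singles out about 1 in 20. With HFD A left in, all 6 libraries stayed below ND.

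For 2 of the called genes the difference between the diets itself had an adjusted p under 0.05, at a size under 1.5-fold. CG34330 was expressed at 77.95, 77.8 and 82.8 RPKM on HSD, at 106, 97.98 and 103 RPKM on HFD and at 146, 134 and 144 RPKM on ND, and HSD minus HFD was -0.361 on the log2 scale (limma adjusted p = 0.014). For Oat the same difference was -0.434 (limma adjusted p = 0.033). Both genes were lower on each rich diet than on ND, with the deeper decrease on HSD.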

How the results depend on the processing

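All 57 called genes kept their sign in every fit of the realigned table that tested them, 51 of them where a mean of 2 RPKM was required, and the number past the threshold moved. The lack of overlap of these genes with ND left little room for a change of sign. With no filter on low values 12 genes were called of 13915, all 12 of them moved alike and 10 among the 57. The average of both diets gave 127 calls, with 6 genes moved alike that were also called between HSD and HFD, and an unadjusted p gave 191 calls, 92 moved alike and 6 of those called between the diets. Leaving out 1 library in turn gave between 3 and 52 calls, between 3 and 47 genes moved alike, and 0 or 1 gene moved alike but called between the diets, the 1 without HFD C. With the labels as deposited, the log2FC was 0.068 for LRP1, 0.044 for CG14630, 0.021 for Agpat2, 0.151 for tj and 0.132 for CG43134, the values then being those of a neighbouring row. Quantile normalization put Yp3 at 0.076. Over the fits without a library the log2FC of phu lay between -0.531 and 0.574 and that of Invadolysin between -0.560 and 0.028, neither called in any. Of the 57 genes, 47 lost their call without the filter, 45 with the replicate block, 20 with the unscaled RPKM and 12 under quantile normalization, each with its sign kept. Other settings gave between 45 and 75 calls, among them 58 by limma-voom on the rebuilt reads, an alternative chosen after seeing the data, with 55 genes shared. Apart from the change of label, the cause of these differences was not tested.

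With the replicate block, 14 genes were called and all 14 had moved alike, 11 lower and 3 higher, with 12 among the 57. The diets shared their collection dates, but whether the letters A, B and C mark them is not given in the sources used here, so the block was not used for the values reported. The correlation of deviations from the diet means lay between 0.047 and 0.248 over the pairs of A libraries, between -0.25 and 0.023 over those of B and between 0.09 and 0.267 over those of C, and not every library correlated best with its own letter.

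With 3 ND libraries, a decrease of a strongly expressed gene that varies within ND, such as Lsp2, is known only within wide limits (95% interval of its log2FC -6.81 to -2.84). Low genes rest on few reads, down to 10 in a library for CG43134. Sugar was eaten for 10 days and fat for 3, so nutrient and duration cannot be told apart. The RNA of other tissues in the dissected hearts was measured only by marker lists.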
